A study of Mus musculus with 14 samples.

Results

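The genes described here encode subunits of the integrins and laminins, 36 of the 24035 genes in the deposited expression table. They were chosen by symbol alone, and comprised 18 integrin alpha chains, 8 integrin beta chains and 10 laminin chains. Expression was measured by mRNA sequencing of whole mouse ear tissue in 14 samples. Langerhans cells, which are dendritic cells resident in the epidermis, had been removed in all groups. Their loss was long term in the LC-DTA genotype, whereas the LC-DTR genotype had lost them through diphtheria toxin (DT) given 3 days before. Both faces of the ear received 20 µl of vehicle (4 parts acetone, 1 part olive oil) or vehicle with 1% croton oil, and tissue was taken after 6 h. Each genotype had 3 vehicle and 4 croton oil samples, and ears with Langerhans cells intact were not analysed here. The sources used here do not give the promoter behind either genotype or the age and sex of the mice. Whether samples of a group were separate animals was not stated in the labels, and the tests therefore measured only the spread between these samples, which may be technical.

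Integrins are receptors made of 1 alpha and 1 beta chain that tie a cell to its matrix or to another cell. In skin, basal keratinocytes hold the epidermis to the basement membrane through the hemidesmosome, where the chain pair Itga6 and Itgb4 binds an epithelial laminin that contains Lama3 and Lamb3. Fibroblasts, vessels and muscle use other pairs built on Itgb1 and rest on other laminins, while leukocytes use pairs built on Itgb2 or Itgb7 to leave the blood and to stay in tissue. Croton oil is an irritant that contains phorbol esters, which activate protein kinase C.

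Values are TPM, which are scaled to gene length and to the total of each sample, so levels of different genes can be set side by side. The depth of sequencing was unknown because TPM keep no record of it. Samples are listed in the order of their replicate numbers, and group values are mean ± SD. Differences between groups are given as log2(TPM + 1) ± SE, a scale on which changes of genes with low TPM look smaller than they are, and were tested with limma over 14693 genes. Calls are those with an adjusted p under 0.05. In whole tissue, fewer cells of a type and less RNA per cell cannot be told apart.

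Of the 36 members, 34 passed the filter of at least 1 TPM in at least 3 samples. Lama1, an alpha chain typical of embryonic basement membranes, stayed at 0.0861 to 0.357 TPM, and Itgad, an alpha partner of Itgb2, at 0.0152 to 0.118 TPM, and neither was tested. Itgax reached 1 TPM only in croton oil samples, 6 in number, so it could enter the tests only by being high there. In LC-DTR vehicle ears the highest chains were epithelial or general ones, Itga6 at 195 ± 14.7, Itgb1 at 175 ± 8.76, Itgb4 at 127 ± 26.4, Itgb5 at 119.6 ± 12.0 and Lamb3 at 105 ± 19.6 TPM. Neighbours in that order overlapped in range, except that every Itgb1 sample was above every Itgb4 sample. Leukocyte chains lay far lower, with the 7 tested ones from Itgb2 at 7.73 ± 2.02 TPM down to Itgax at 0.461 ± 0.132 TPM. The 6 epithelial integrin chains summed to 397 ± 46.2 TPM in that group and the 8 leukocyte chains to 28.2 ± 2.91 TPM. Markers analysed for keratinocytes, fibroblasts, endothelium, muscle, cartilage and nerve had means of at least 1 TPM in every group, except Matn1 and Matn3. Of these 2 cartilage markers, Matn1 did not exceed 0.0711 TPM in any sample. Matn3 was at 0.409 to 0.667 TPM in LC-DTR croton oil samples. Cd207, which encodes langerin of Langerhans cells, had group means from 0.259 to 1.18 TPM.

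Croton oil changed 17 of the 34 tested members in LC-DTR ears, 10 higher and 7 lower, against 51.6% of all tested genes called in that comparison (22.1% higher and 29.5% lower). In LC-DTA ears it changed 25 members, 11 higher and 14 lower, against 58.7% of all genes (24.2% higher and 34.5% lower). The share of members called was therefore near the background in LC-DTR. These shares of all genes are also the background for the class and list counts given below for croton oil. Vehicle and croton oil samples did not overlap for 15 members in LC-DTR, 9 higher and 6 lower, where this held for 47.7% of all genes (20.6% higher, 27.1% lower). They did not overlap for 26 members in LC-DTA, 11 higher and 15 lower, where this held for 63.0% of all genes (26.1% higher, 36.9% lower). The median log2 difference of the members was 0.21 in LC-DTR and -0.033 in LC-DTA, beside -0.06 and -0.09 over all genes tested. In both genotypes 8 chains were higher, Itga2, Itga3, Itga6, Itgb1, Itgb6, Itgam, Itgax and Itgb2. Itgax is in all these counts of higher chains, although it could be tested only by being high after croton oil. Its calls are therefore no support for a response. Another 5 were lower in both, Itga11, Itgb5, Lama3, Lamb1 and Lamb2. Lama5 was called in opposite directions, and 6 chains were called in neither genotype, Itga1, Itga2b, Itga9, Itgav, Itgb3 and Itgb4, although Itgb3 was called in LC-DTR without LC-DTR vehicle sample 3 (adjusted p = 0.0324). Integrins and laminins divided differently in LC-DTA ears, where 11 of 25 tested integrin chains rose and 6 fell while 0 of 9 tested laminin chains rose and 8 fell. After median ratio scaling the falls of Lama3 and Lamc1 in LC-DTA were no longer called (adjusted p = 0.0913 and 0.0809). In LC-DTR ears 9 integrin chains rose and 3 fell, and 1 laminin chain rose and 4 fell.

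**Figure D1:**
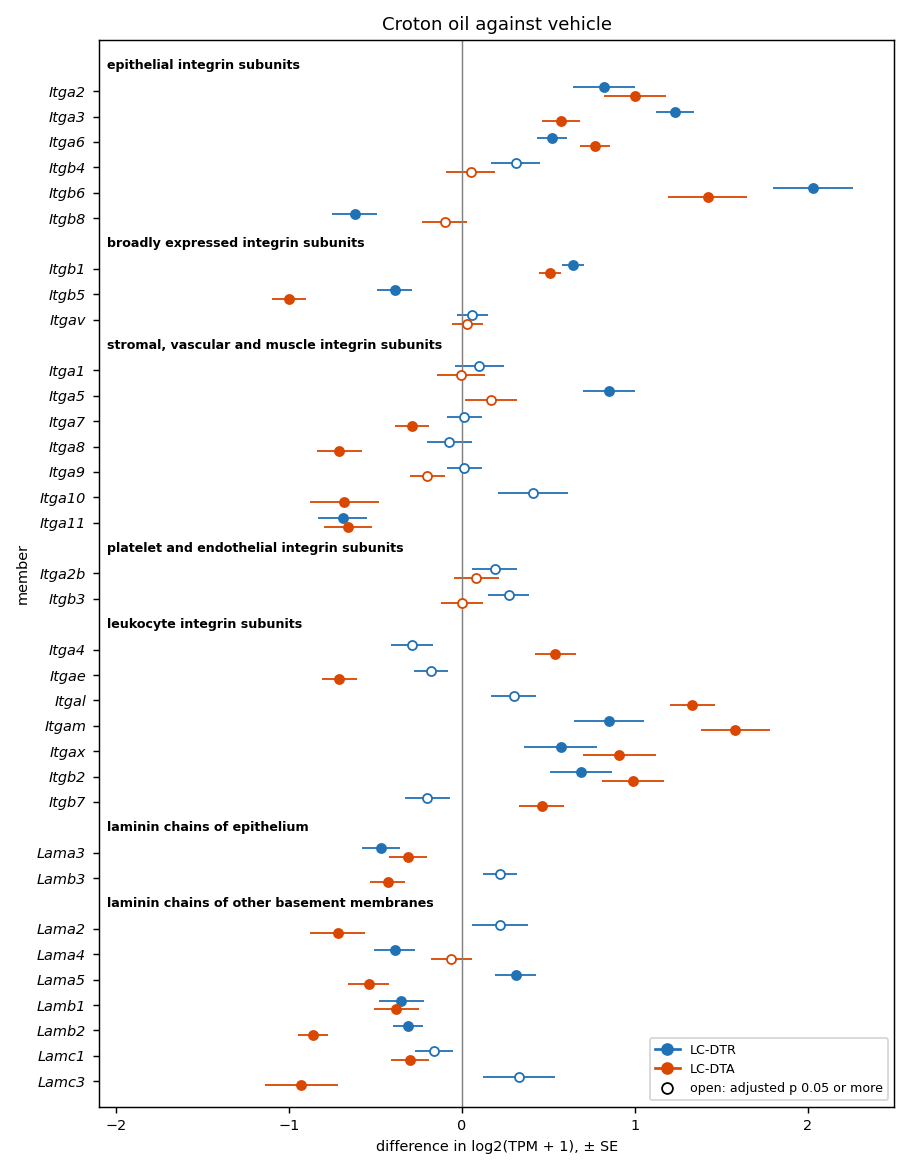
Difference between croton oil and vehicle in log2(TPM + 1) (x axis, ± SE) for the 34 tested members (y axis, grouped by class), with 1 colour for each genotype; filled points were called at an adjusted p under 0.05. Itgb6 lies farthest right in LC-DTR at 2.03, and laminin chains lie mostly left of 0 in LC-DTA.

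Of the 6 epithelial integrin chains, 4 rose and 1 fell after croton oil in LC-DTR, and 4 rose and 0 fell in LC-DTA. Among all genes tested, 22.1% rose and 29.5% fell in LC-DTR, and 24.2% rose and 34.5% fell in LC-DTA. Itgb6, which pairs with Itgav and is known from injured and healing epithelium, was at 1.90, 1.83 and 1.99 TPM in LC-DTR vehicle ears and at 15.4, 7.26, 7.85 and 15.7 TPM after croton oil. In LC-DTA ears it was at 2.56, 2.36 and 1.62 TPM under vehicle and at 6.00, 7.16, 8.56 and 8.19 TPM after croton oil. No croton oil sample overlapped a vehicle sample in either genotype. The difference was 2.03 ± 0.23 (adjusted p = 1.68e-05) in LC-DTR and 1.42 ± 0.23 (adjusted p = 1.54e-04) in LC-DTA. Itgb5, another partner of Itgav, went the other way. It fell from 127, 126 and 106 TPM to 82.2, 97.4, 104 and 80.4 TPM in LC-DTR, and from 112, 124 and 113 TPM to 63.9, 54.9, 51.3 and 60.9 TPM in LC-DTA. On the log2 scale it fell by 0.39 ± 0.10 (adjusted p = 0.00569) and by 1.00 ± 0.10 (adjusted p = 4.94e-06), and the fall was larger in LC-DTA by a test of the difference (-0.61 ± 0.14, adjusted p = 0.00984). Itgav itself stayed between 27.2 and 39.6 TPM in the 14 samples and was called in neither genotype. The ratio of Itgb6 to Itgb5 in TPM therefore went from 0.0161 to 0.133 in LC-DTR and from 0.0187 to 0.131 in LC-DTA on average.

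Itga3 and Itga2, which pair with Itgb1 in keratinocytes, rose with it. Itga3, a laminin receptor chain outside the hemidesmosome, was at 70.0, 61.6 and 53.4 TPM in LC-DTR vehicle ears and 167, 123, 128 and 167 TPM after croton oil (1.23 ± 0.11, adjusted p = 4.02e-06). In LC-DTA it was at 83.2, 89.2 and 87.6 TPM and then 133, 119.5, 140.1 and 124 TPM (0.57 ± 0.11, adjusted p = 8.44e-04). The groups did not overlap in either genotype, and the rise was smaller in LC-DTA (difference of responses -0.66 ± 0.16, adjusted p = 0.0119). Itga2, a collagen receptor chain, rose from 7.29 ± 1.64 to 13.8 ± 3.71 TPM in LC-DTR (0.82 ± 0.18, adjusted p = 0.00208) and from 6.61 ± 0.426 to 14.3 ± 1.92 TPM in LC-DTA (1.00 ± 0.18, adjusted p = 3.67e-04). Itgb1, the common beta chain, went from 184, 167 and 174 to 295.2, 258, 256 and 288 TPM in LC-DTR, and from 224, 216 and 235 to 299.6, 329.6, 331 and 318 TPM in LC-DTA. These groups were apart as well, with differences of 0.64 ± 0.064 (adjusted p = 6.79e-06) and 0.51 ± 0.064 (adjusted p = 2.37e-05).

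The hemidesmosome pair did not move as a pair. Itga6 rose from 195, 209 and 179.8 to 299, 256, 257 and 310.1 TPM in LC-DTR (0.52 ± 0.085, adjusted p = 2.48e-04) and from 188, 177 and 179 to 279.8, 302, 344 and 320.5 TPM in LC-DTA (0.77 ± 0.085, adjusted p = 8.27e-06). Itgb4, which pairs with Itga6 alone, was at 153, 127 and 101 and then 191, 123, 149 and 167 TPM in LC-DTR, with overlapping groups (0.31 ± 0.14, adjusted p = 0.0852). Without LC-DTR vehicle sample 1, or without LC-DTR croton oil sample 2, that difference was called (adjusted p = 0.0219 and 0.0178). In LC-DTA it was at 176 ± 16.1 and 182 ± 13.0 TPM (0.049 ± 0.14, adjusted p = 0.791). The ratio of Itgb4 to Itga6 in TPM was 0.975 ± 0.115 in LC-DTA vehicle ears and 0.587 ± 0.0465 after croton oil, with no overlap, and 0.650 ± 0.119 and 0.560 ± 0.0668 in LC-DTR, with overlap. Itgb8, a TGF-beta activating chain, fell from 4.499 ± 0.890 to 2.58 ± 0.379 TPM in LC-DTR (-0.62 ± 0.13, adjusted p = 0.00186) and was at 5.01 ± 0.660 and 4.61 ± 0.697 TPM in LC-DTA, where it was not called (adjusted p = 0.54). The test of the difference between these responses gave an adjusted p of 0.0648, or 0.0318 to 0.0497 without LC-DTR vehicle 2 or LC-DTA croton oil 1.

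**Figure D2:**
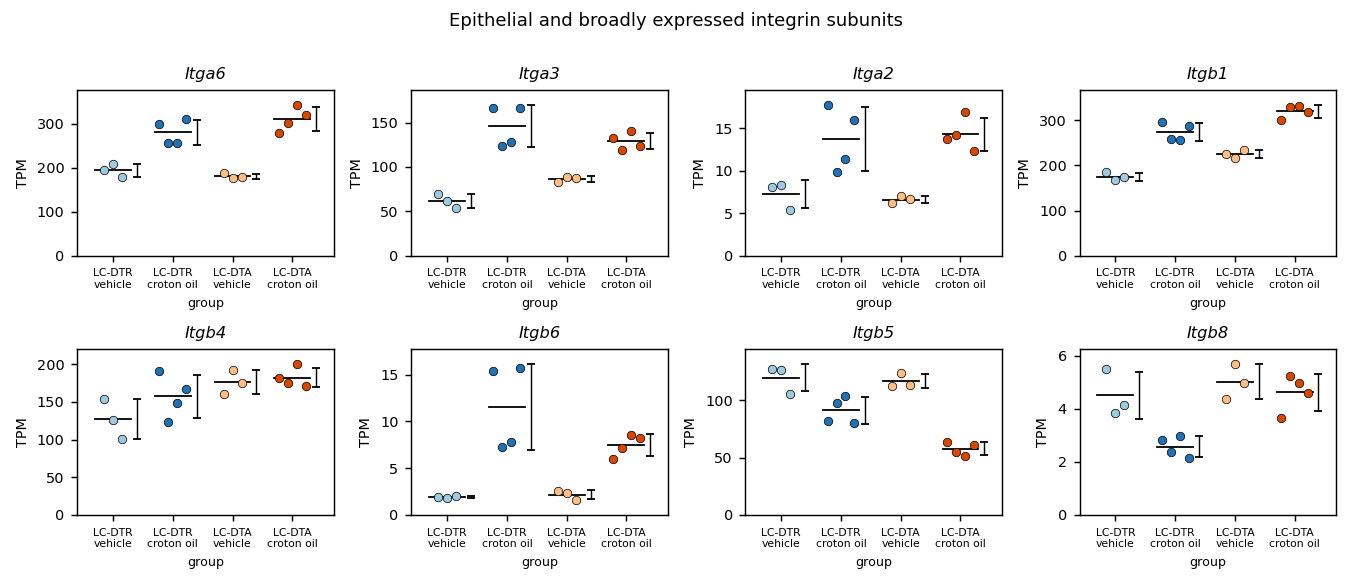
TPM of 8 epithelial and broadly expressed integrin chains (y axes, linear from 0) in each sample of the 4 groups (x axis); points are samples, lines are means and bars are ± SD. Croton oil samples of both genotypes lie above the vehicle samples for Itga6, Itga3, Itga2, Itgb1 and Itgb6 and below them for Itgb5.

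Most other listed genes of the hemidesmosome fell or were not called where Itga6 rose. Of 7 listed genes of the hemidesmosome and epidermal anchorage, 0 rose and 5 fell in LC-DTR ears, and 2 rose and 4 fell in LC-DTA ears. Dst, which encodes the plakin BP230 of the hemidesmosome among other isoforms, fell by 1.05 ± 0.13 (adjusted p = 4.38e-05) in LC-DTR and by 1.75 ± 0.13 (adjusted p = 9.65e-07) in LC-DTA on the log2 scale. Krt5, a basal keratin that anchors there, fell by 1.29 ± 0.13 (adjusted p = 7.76e-06) and by 0.51 ± 0.13 (adjusted p = 0.0047), and Col7a1, the collagen of anchoring fibrils, fell by 0.48 ± 0.12 (adjusted p = 0.00372) and by 0.87 ± 0.12 (adjusted p = 3.37e-05). The 2 that rose in LC-DTA were Cd151, a tetraspanin bound to Itga3 and Itga6, by 0.26 ± 0.057 (adjusted p = 0.00142), and Krt14, the keratin partner of Krt5, by 0.30 ± 0.10 (adjusted p = 0.0165). In LC-DTR Krt14 fell by 0.46 ± 0.10 (adjusted p = 0.00168). The 5 basal keratinocyte markers were split, with 1 higher and 4 lower in LC-DTR and 2 higher and 3 lower in LC-DTA. Trp63, a transcription factor of basal keratinocytes, rose in both, by 0.38 ± 0.11 (adjusted p = 0.0139) and 0.43 ± 0.11 (adjusted p = 0.00517), whereas Krt5, Krt15 and Col17a1 fell in both. The sum of the 5 markers, most of which is keratin, was 14411 to 16207 TPM in LC-DTR vehicle and 7708 to 10051 TPM in LC-DTR croton oil samples, and 13605 to 13753 and then 10816 to 12822 TPM in LC-DTA. The part of cell composition in the rise of the epithelial chains was not tested.

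Among the LC-DTR croton oil samples, samples 1 and 4 stood apart from samples 2 and 3, at 28.5 and 28.6 against 5.26 and 8.06 on the first principal component of all genes. Of the 34 tested members, 14 were higher in both of samples 1 and 4 than in either of samples 2 and 3, including Itgb6, Itga3, Itga2, Itga6, Itgb1, Itgam and Itgb2, and 6 were lower, including Itgb5. The share of all genes split this way was not counted. As the split was seen in these same data, the counts show nothing particular to the members. The neutrophil markers summed to 923 and 850 TPM in samples 1 and 4 and to 415 and 328 TPM in samples 2 and 3. Without samples 2 and 3, 20 members were called in LC-DTR, 12 higher and 8 lower, against 52.0% of all genes in that fit (21.5% higher and 30.5% lower), and the Itgb6 difference was 2.51. Itgb4 (0.51, adjusted p = 0.0111), Itgal (0.46, adjusted p = 0.0119) and Itgae (-0.30, adjusted p = 0.0313) were among those then called. Because the samples left out were picked from the same split, these added calls are no support for a response.

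Lama3 and Lamb3, laminin chains of epithelium that these integrins bind, were called lower in LC-DTA. Lama3, an alpha chain, fell from 24.7, 27.0 and 20.1 TPM to 17.96, 17.3, 17.9 and 14.5 TPM in LC-DTR (-0.47 ± 0.11, adjusted p = 0.00235). In LC-DTA it was at 18.5, 20.7 and 17.8 TPM and then 17.2, 14.6, 14.5 and 14.3 TPM (-0.31 ± 0.11, adjusted p = 0.023), a call that was lost when any of 4 single samples was left out, LC-DTA vehicle 2 or LC-DTA croton oil 2, 3 or 4 (adjusted p 0.0505 to 0.105). Lamb3, a beta chain, was at 117, 115 and 82.2 TPM and then 127, 120.3, 108 and 127 TPM in LC-DTR, overlapping and not called (0.22 ± 0.10, adjusted p = 0.0939), although without LC-DTR vehicle sample 1 or 2 it was (adjusted p = 0.0354 to 0.048). In LC-DTA it fell from 105, 109 and 111 TPM to 85.2, 76.1, 77.6 and 82.3 TPM (-0.43 ± 0.10, adjusted p = 0.00271). That response differed from the one in LC-DTR by -0.65 ± 0.15 (adjusted p = 0.00742). The ratio of Lamb3 to Lama3 in TPM went from 4.36 ± 0.342 to 7.21 ± 1.13 in LC-DTR, with no overlap between vehicle and croton oil samples. In LC-DTA it was 5.74 ± 0.476 and 5.32 ± 0.332, with overlap.

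**Figure D3:**
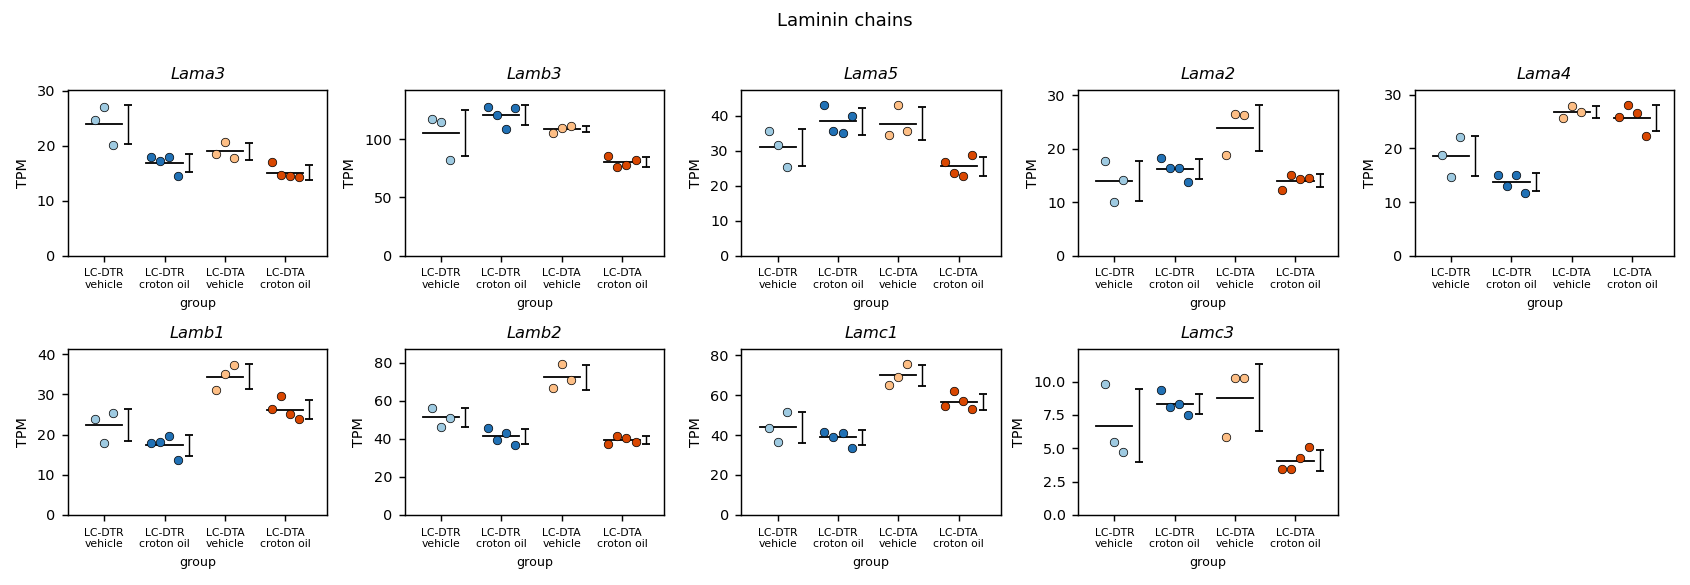
TPM of the 9 tested laminin chains (y axes, linear from 0) in each sample of the 4 groups (x axis); points are samples, lines are means and bars are ± SD. Lamb2, Lama2 and Lamc1 are highest on average in LC-DTA vehicle samples, and Lama4 is lowest in LC-DTR croton oil samples on average.

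Laminin chains of other basement membranes fell in LC-DTA ears, where 6 of the 7 tested were lower and 0 higher after croton oil. In LC-DTR ears 3 were lower and 1 higher. The shares over all genes tested were 34.5% lower and 24.2% higher in LC-DTA, and 29.5% lower and 22.1% higher in LC-DTR. Lamb2, a beta chain of vessel, muscle and nerve basement membranes, was at 66.6, 79.3 and 70.6 TPM in LC-DTA vehicle ears and 37.4, 41.2, 40.6 and 38.1 TPM after croton oil (-0.86 ± 0.087, adjusted p = 4.82e-06). In LC-DTR it was at 56.4, 46.4 and 50.95 TPM and then 45.7, 39.2, 43.2 and 36.9 TPM, a smaller fall (-0.31 ± 0.087, adjusted p = 0.00944) that was not called without LC-DTR vehicle sample 1 (adjusted p = 0.053). The responses differed by -0.55 ± 0.12 (adjusted p = 0.00728). Lama5, the alpha chain that epithelium and vessels share, rose in LC-DTR from 31.0 ± 5.18 to 38.5 ± 3.82 TPM (0.31 ± 0.12, adjusted p = 0.0424) and fell in LC-DTA from 34.4, 43.2 and 35.7 to 26.8, 23.7, 22.9 and 28.7 TPM (-0.54 ± 0.12, adjusted p = 0.00155). The rise in LC-DTR was not called when LC-DTR vehicle 2 or 3, LC-DTR croton oil 1 or 4, or LC-DTA vehicle 3 was left out (adjusted p 0.0511 to 0.224). The difference between the responses was -0.86 ± 0.17 (adjusted p = 0.00376).

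Lama2 and Lamc3 also responded differently between the genotypes. Lama2, the alpha chain of muscle and nerve laminin whose loss causes muscular dystrophy, was at 13.99 ± 3.79 and 16.2 ± 1.84 TPM in LC-DTR and fell from 18.9, 26.4 and 26.4 to 12.2, 15.1, 14.4 and 14.5 TPM in LC-DTA (-0.72 ± 0.16, adjusted p = 0.00182; difference of responses -0.94 ± 0.23, adjusted p = 0.011). Lamc3 was at 6.69 ± 2.74 and 8.34 ± 0.767 TPM in LC-DTR and fell from 5.88, 10.3 and 10.3 to 3.47, 3.45, 4.29 and 5.09 TPM in LC-DTA (-0.93 ± 0.21, adjusted p = 0.00213; difference of responses -1.26 ± 0.30, adjusted p = 0.0103). The LC-DTR vehicle samples of Lamc3 were uneven, at 9.83, 5.50 and 4.76 TPM, and without sample 1 the chain was called higher in LC-DTR (adjusted p = 0.0202). Lamb1, the beta chain of vascular and embryonic laminins, fell from 22.4 ± 3.98 to 17.3 ± 2.66 TPM in LC-DTR and from 34.4 ± 3.16 to 26.2 ± 2.41 TPM in LC-DTA, and Lama4, the alpha chain of vessel walls, from 18.5 ± 3.71 to 13.7 ± 1.60 TPM in LC-DTR. These calls were fragile: Lamb1 in LC-DTR was lost without LC-DTR vehicle 1 or 3, LC-DTR croton oil 1 or 4, or LC-DTA vehicle 2 (adjusted p 0.0511 to 0.172), and in LC-DTA without LC-DTA vehicle 2 or 3 or LC-DTA croton oil 3 or 4 (0.0522 to 0.0917). Lama4 was lost without LC-DTR vehicle 3 (adjusted p = 0.0894), and Lamc1, which fell from 69.9 ± 5.29 to 56.5 ± 4.07 TPM in LC-DTA, without LC-DTA vehicle 2 or 3 or LC-DTA croton oil 1 or 4 (0.0535 to 0.107).

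Partners of laminin in the basement membrane fell with these chains in LC-DTA, where 6 of 11 were lower and 0 higher. In LC-DTR 3 were lower and 2 higher. Of all genes tested, 34.5% were lower and 24.2% higher in LC-DTA, and 29.5% and 22.1% in LC-DTR. Bcam, a receptor for laminin chains containing Lama5, fell by 0.88 ± 0.10 (adjusted p = 1.53e-05) in LC-DTR and by 0.84 ± 0.10 (adjusted p = 1.24e-05) in LC-DTA, and Dag1, which encodes dystroglycan, a receptor for Lama2, fell by 0.60 ± 0.092 (adjusted p = 1.52e-04) and by 0.69 ± 0.092 (adjusted p = 3.26e-05). Agrn, a heparan sulfate proteoglycan that binds laminin, fell in both as well, by 0.50 ± 0.14 (adjusted p = 0.00747) and by 0.70 ± 0.14 (adjusted p = 6.36e-04). Some other cell markers moved in the same direction in LC-DTA. In LC-DTA, 4 of 6 endothelial, 4 of 6 pericyte and smooth muscle, 4 of 5 Schwann cell and 3 of 6 skeletal muscle markers were lower after croton oil. The endothelial sum went from 129 to 146 TPM under vehicle down to 98.9 to 113 TPM after croton oil in that genotype. Skeletal muscle sums overlapped there, at 2130 to 3647 and then 1760 to 2755 TPM. In LC-DTR the sums of all these marker lists overlapped between vehicle and croton oil samples. The endothelial sum there was 80.2 to 101 TPM and then 86.6 to 109 TPM. These sums hide single markers that moved in LC-DTR with no overlap. Acta2 fell from 18.2 to 32.5 TPM down to 8.41 to 15.0 TPM. Myh11 fell from 4.01 to 5.51 TPM down to 1.37 to 3.04 TPM, and Cspg4 from 16.5 to 19.5 TPM down to 8.24 to 11.4 TPM. The other pericyte and smooth muscle markers, Rgs5, Pdgfrb and Des, overlapped, while the endothelial markers Cdh5 and Emcn were higher with no overlap. The part of these cells in the lower laminin values was not tested.

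Among leukocyte integrin chains, 3 of 7 tested were higher and 0 lower in LC-DTR, and 6 were higher and 1 lower in LC-DTA. The higher ones include Itgax, which passed the filter only through croton oil samples. Of all genes tested, 22.1% were higher and 29.5% lower in LC-DTR, and 24.2% and 34.5% in LC-DTA. Itgam, the alpha chain of the Mac-1 receptor of neutrophils and monocytes, was at 4.26, 3.34 and 3.91 TPM in LC-DTR vehicle ears and 11.6, 5.28, 6.29 and 8.84 TPM after croton oil (0.85 ± 0.20, adjusted p = 0.00267). In LC-DTA it went from 4.46, 5.40 and 5.12 to 14.6, 20.05, 18.9 and 14.7 TPM (1.58 ± 0.20, adjusted p = 1.92e-05). Both pairs of groups were apart. The responses of Itgam differed by 0.73 ± 0.28, not called at an adjusted p of 0.0706, though called without LC-DTR croton oil sample 1 (adjusted p = 0.0141). Itgb2, the beta chain that Itgam, Itgal and Itgax all need, rose from 7.86, 5.65 and 9.69 to 17.8, 10.4, 10.9 and 13.5 TPM in LC-DTR (0.69 ± 0.18, adjusted p = 0.00624) and from 15.0, 14.2 and 17.9 to 30.2, 37.7, 33.3 and 27.4 TPM in LC-DTA (0.99 ± 0.18, adjusted p = 4.32e-04). The difference between these responses was 0.30 ± 0.26 (adjusted p = 0.425).

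Itgal, Itga4 and Itgb7, chains of lymphocytes and monocytes among other cells, responded differently in the genotypes. Itgal, the alpha chain of LFA-1, went from 2.20, 2.04 and 2.73 to 6.91, 8.41, 7.55 and 6.66 TPM in LC-DTA (1.33 ± 0.13, adjusted p = 3.15e-06). In LC-DTR it was at 2.34, 1.83 and 2.57 and then 3.44, 2.84, 2.33 and 3.48 TPM, overlapping and not called (0.30 ± 0.13, adjusted p = 0.0588), although it was called without LC-DTR vehicle 3 or LC-DTR croton oil 3 (adjusted p 0.0176 to 0.0457). The responses differed by 1.03 ± 0.18 (adjusted p = 0.00196). Itga4, whose pairs with Itgb1 and Itgb7 bind Vcam1 and Madcam1, rose in LC-DTA from 2.38, 2.79 and 2.94 to 4.38, 5.01, 4.46 and 3.74 TPM (0.54 ± 0.12, adjusted p = 0.0021). It was at 1.92 ± 0.456 and 1.37 ± 0.226 TPM in LC-DTR (-0.29 ± 0.12, adjusted p = 0.0631), where leaving out LC-DTR vehicle 2 made it a called fall (adjusted p = 0.0105). The difference of responses was 0.84 ± 0.18 (adjusted p = 0.0052). Itgb7 rose in LC-DTA from 8.09, 9.23 and 10.6 to 12.5, 15.0, 12.5 and 12.5 TPM (0.46 ± 0.13, adjusted p = 0.00864) and was at 7.02 ± 1.65 and 5.88 ± 0.458 TPM in LC-DTR (-0.20 ± 0.13, adjusted p = 0.217, or 0.0179 without LC-DTR vehicle 3). The responses differed by 0.66 ± 0.19 (adjusted p = 0.0221), which was not called without LC-DTA vehicle 1 (adjusted p = 0.0581).

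Itgae, the alpha chain that pairs with Itgb7 to bind E-cadherin and marks T cells and dendritic cells held in epithelium, moved against its partner. It fell in LC-DTA from 7.07, 5.95 and 7.07 to 3.47, 3.68, 3.46 and 4.26 TPM (-0.71 ± 0.10, adjusted p = 5.24e-05), and was at 4.92 ± 0.0882 and 4.26 ± 0.552 TPM in LC-DTR (-0.18 ± 0.10, adjusted p = 0.152). The responses differed by -0.53 ± 0.14 (adjusted p = 0.0169), or by -0.40 without LC-DTR croton oil samples 2 and 3 (adjusted p = 0.0587). The ratio of Itgae to Itgb7 in TPM was on average 0.728 before and 0.732 after croton oil in LC-DTR, and 0.729 before and 0.285 ± 0.0397 after it in LC-DTA, where croton oil samples were below every other sample. Itgax, the CD11c chain of dendritic cells and some macrophages, was at 0.309 to 0.551 TPM in LC-DTR vehicle and 2.34, 0.613, 0.890 and 1.13 TPM in LC-DTR croton oil ears (0.57 ± 0.21, adjusted p = 0.0371). That call was lost without any 1 of the 3 LC-DTR vehicle samples or LC-DTR croton oil 1 or 4 (adjusted p 0.0589 to 0.112). In LC-DTA it went from 0.526 ± 0.122 to 1.90 ± 0.596 TPM (0.91 ± 0.21, adjusted p = 0.00227). Because Itgax passed the filter only through croton oil samples, its p-values in both genotypes are no support for a rise.

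**Figure D4:**
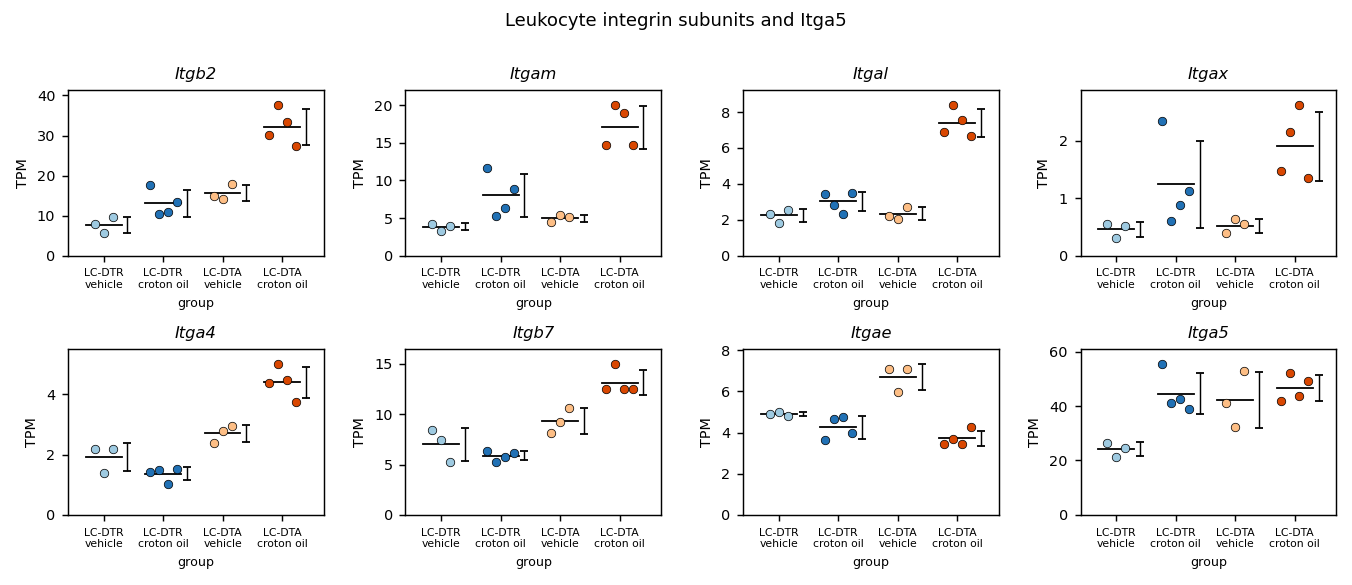
TPM of 7 leukocyte integrin chains and Itga5 (y axes, linear from 0) in each sample of the 4 groups (x axis); points are samples, lines are means and bars are ± SD. LC-DTA croton oil samples lie above all other samples for Itgb2, Itgam, Itgal, Itga4 and Itgb7, while Itgae is lowest on average in that group.

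Markers of the cells known to carry these chains moved in both directions. All 9 tested neutrophil markers were higher after croton oil in both genotypes, with medians of 2.26 and 2.70, and their sums went from 39.7 to 91.3 TPM up to 328 to 923 TPM in LC-DTR and from 40.8 to 78.1 TPM up to 489 to 760 TPM in LC-DTA. Of these markers, Trem1 and Cd177 did not exceed 0.265 and 0.591 TPM in any vehicle sample. Both passed the filter only through croton oil samples, so their calls are no support for a response. The monocyte genes Ly6c2 and Ccr2 were called higher in LC-DTA and not in LC-DTR. Mean Ly6c2 went from 2.58 TPM under vehicle to 4.76 TPM after croton oil in LC-DTR and from 3.81 to 48.7 TPM in LC-DTA, and mean Ccr2 from 7.25 to 6.44 TPM and from 5.74 to 37.9 TPM. Their responses differed between the genotypes by 2.58 ± 0.49 (adjusted p = 0.00311) and 2.68 ± 0.25 (adjusted p = 8.20e-05). Of 10 monocyte and macrophage markers 3 rose and 0 fell in LC-DTR, and 4 rose and 3 fell in LC-DTA. The 5 tested T cell markers gave 1 higher and 2 lower in LC-DTR and 1 higher and 3 lower in LC-DTA, with mean Cd3g going from 30.2 to 17.1 TPM in LC-DTR and from 20.7 to 15.9 TPM in LC-DTA. Of 5 tested dendritic cell markers, a list that holds Itgax itself, 3 rose and 0 fell in LC-DTR, and 2 rose and 2 fell in LC-DTA. Those that rose include Itgax in each genotype, which passed the filter only through croton oil samples. In LC-DTA Cd209a rose by 1.61 ± 0.26 (adjusted p = 1.50e-04), while Flt3 fell by 0.86 ± 0.18 (adjusted p = 9.75e-04) and Zbtb46 by 0.26 ± 0.09 (adjusted p = 0.0256). How far these cells account for the integrin values was not tested.

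Some ligands and adaptors of integrins changed, in both directions. Among 8 cell surface ligands of leukocyte integrins, Icam1, the ligand of Itgal and Itgam pairs, rose by 1.55 ± 0.22 (adjusted p = 8.02e-05) in LC-DTR and 1.33 ± 0.22 (adjusted p = 1.72e-04) in LC-DTA, and the junction protein F11r by 0.74 ± 0.067 (adjusted p = 3.26e-06) and 0.26 ± 0.067 (adjusted p = 0.00402). In all, 2 of the 8 rose and 1 fell in LC-DTR, and 2 rose and 2 fell in LC-DTA. Of 26 genes of integrin activation and adhesion adaptors, 8 rose and 3 fell in LC-DTR, and 4 rose and 6 fell in LC-DTA. Beside both lists, 51.6% of all genes tested were called in LC-DTR (22.1% higher, 29.5% lower). In LC-DTA 58.7% were called (24.2% higher, 34.5% lower). Ptk2b, an adhesion kinase, rose in both, by 1.46 ± 0.18 (adjusted p = 2.63e-05) and 0.94 ± 0.18 (adjusted p = 4.85e-04). Sharpin, an inhibitor of integrin activation, fell in LC-DTA by 0.54 ± 0.056 (adjusted p = 5.50e-06), as did the adaptors listed as Tenc1, now called Tns2, by 0.99 ± 0.12 (adjusted p = 1.31e-05) and Lims2 by 0.92 ± 0.13 (adjusted p = 5.80e-05).

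Of the 7 stromal, vascular and muscle integrin chains, 1 rose and 1 fell after croton oil in LC-DTR, and 0 rose and 4 fell in LC-DTA. For all genes tested the shares were 22.1% and 29.5% in LC-DTR, and 24.2% and 34.5% in LC-DTA. Itga5, the fibronectin receptor chain, was at 26.5, 21.2 and 24.8 TPM in LC-DTR vehicle ears and 55.5, 41.3, 42.6 and 38.9 TPM after croton oil (0.85 ± 0.15, adjusted p = 4.58e-04). In LC-DTA it was at 41.2, 32.3 and 52.9 TPM and then 41.9, 52.3, 43.8 and 49.1 TPM (0.17 ± 0.15, adjusted p = 0.35), so that LC-DTR vehicle ears were low and the other 3 groups overlapped. The difference of responses, -0.68 ± 0.21 (adjusted p = 0.0353), was not called in 7 of the fits that left out 1 sample, those without LC-DTR vehicle 2 or 3, LC-DTR croton oil 1, LC-DTA vehicle 1 or 3, or LC-DTA croton oil 1 or 3 (adjusted p 0.0537 to 0.0909). Itga11, a collagen receptor chain of fibroblasts, fell from 3.00 ± 0.914 to 1.43 ± 0.161 TPM in LC-DTR (-0.69 ± 0.14, adjusted p = 0.00119) and from 4.35 ± 0.529 to 2.38 ± 0.298 TPM in LC-DTA (-0.66 ± 0.14, adjusted p = 0.00126). Itga8, a chain of smooth muscle and fibroblasts that binds Npnt, fell in LC-DTA from 6.66 ± 0.636 to 3.68 ± 0.500 TPM (-0.71 ± 0.13, adjusted p = 3.83e-04) and was at 3.88 ± 0.620 and 3.65 ± 0.649 TPM in LC-DTR. The responses of Itga8 differed by -0.64 ± 0.18 (adjusted p = 0.0235), a call lost without LC-DTR vehicle 2 or LC-DTA vehicle 3 (adjusted p 0.0574 to 0.0635).

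Itga10, a collagen receptor chain of cartilage, was at 11.5, 6.89 and 5.08 and then 12.3, 10.3, 9.07 and 9.48 TPM in LC-DTR, and fell from 7.94, 11.5 and 8.68 to 4.47, 5.86, 6.28 and 5.14 TPM in LC-DTA (-0.68 ± 0.20, adjusted p = 0.0101, or 0.0597 without LC-DTA vehicle 2). Its responses differed by -1.09 ± 0.28 (adjusted p = 0.0153). Without LC-DTR vehicle sample 1, the highest of its group, Itga10 was called higher in LC-DTR (adjusted p = 0.00469). Itga7, a laminin receptor chain of muscle, was at 16.7 ± 2.56 and 16.7 ± 1.35 TPM in LC-DTR and at 25.9 ± 0.994 and 21.0 ± 1.53 TPM in LC-DTA (-0.29 ± 0.10, adjusted p = 0.0206, not called without LC-DTA vehicle 3 or LC-DTA croton oil 1, at 0.0549 to 0.074). Of 12 matrix ligands of integrins, 3 rose and 2 fell in LC-DTR and 3 rose and 4 fell in LC-DTA. Cyr61, a matricellular ligand of several integrins, rose in both, by 1.62 ± 0.27 (adjusted p = 2.77e-04) and 1.46 ± 0.27 (adjusted p = 4.28e-04). Npnt fell in both, by 0.53 ± 0.12 (adjusted p = 0.00302) and by 0.66 ± 0.12 (adjusted p = 5.44e-04). Tnc, which binds Itga9 pairs, rose in LC-DTA by 1.29 ± 0.25 (adjusted p = 6.01e-04).

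Under vehicle, every member that differed between the genotypes was higher in LC-DTA. There were 18 such members and 0 lower ones, against 24.5% of all genes called, 19.1% higher and 5.34% lower. The median log2 difference was 0.38 for the members and 0.10 for all genes. The direction of calls over all genes depended on scaling: 78.2% of the called genes were higher in LC-DTA as deposited, 50.2% after median ratio scaling and 47.7% after quantile normalization, each of which moved the median of all genes by -0.11. The members then gave 14 higher and 1 lower, and 16 higher and 1 lower, the lower one being Lama3. The groups did not overlap for 21 members, all higher in LC-DTA, where this held for 42.5% of all genes (31.4% higher, 11.1% lower). The LC-DTR vehicle values used here also enter the LC-DTR response to croton oil, so the comparisons are not independent.

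Most of the higher members were stromal or vascular. Of the 7 stromal, vascular and muscle chains 6 were higher in LC-DTA vehicle ears, both platelet and endothelial chains were, and so were 5 of 7 tested laminin chains of other basement membranes. Neither Lama3 nor Lamb3 was called. Over all genes tested, 19.1% were higher and 5.34% lower in this comparison. Itga9, a receptor chain for Tnc, was at 11.9 ± 1.26 TPM in LC-DTR and 19.4 ± 0.654 TPM in LC-DTA (0.67 ± 0.10, adjusted p = 0.00107). Itga7 was at 17.98, 13.7 and 18.3 against 25.3, 25.4 and 27.0 TPM (0.62 ± 0.10, adjusted p = 0.00147). Lamc1 was at 43.5, 36.4 and 51.8 against 65.2, 69.0 and 75.6 TPM (0.67 ± 0.11, adjusted p = 0.00149). The groups did not overlap for these chains, and LC-DTR vehicle sample 2 was the lowest sample for each of the 3. The difference in Itga5 was 0.75 ± 0.16 (adjusted p = 0.00514), in Lama2 0.75 ± 0.17 (adjusted p = 0.00738), in Lamb1 0.61 ± 0.14 (adjusted p = 0.00791), in Itga8 0.66 ± 0.14 (adjusted p = 0.00469), and in Lamb2 0.49 ± 0.093 (adjusted p = 0.00283). Itga2b, the alpha chain of the platelet fibrinogen receptor, was at 4.83 ± 0.894 against 8.24 ± 0.907 TPM (0.67 ± 0.14, adjusted p = 0.00503), and its partner Itgb3 at 3.89 ± 0.661 against 6.49 ± 1.02 TPM (0.61 ± 0.13, adjusted p = 0.00435).

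Among epithelial and general chains, Itga3 (0.49 ± 0.12, adjusted p = 0.0111), Itgb4 (0.49 ± 0.15, adjusted p = 0.0343) and Itgb1 (0.36 ± 0.069, adjusted p = 0.00279) were higher in LC-DTA vehicle ears, while Itga6 was not called (-0.10 ± 0.091, adjusted p = 0.444). After median ratio scaling Itga3 (0.37, adjusted p = 0.0523) and Itgb4 (0.37, adjusted p = 0.102) were no longer called. Itgb2 was at 7.73 ± 2.02 against 15.7 ± 1.95 TPM (0.95 ± 0.20, adjusted p = 0.00404) with no rise called in its partners Itgam (0.31 ± 0.21, adjusted p = 0.301) and Itgal (0.035 ± 0.14, adjusted p = 0.879). The ratio of Itgam to Itgb2 in TPM was 0.512 ± 0.0974 in LC-DTR and 0.322 ± 0.0516 in LC-DTA vehicle ears, with no overlap. Leaving out 1 sample ended 5 of the 18 calls. Without LC-DTR vehicle 2, the calls of Itga1 (adjusted p = 0.0622), Lama4 (0.0557), Itga11, Itgae and Itgb4 were lost, and 13 members were called, against 23 without LC-DTR vehicle 1. Itgb4 was also lost without LC-DTR vehicle 3 or LC-DTA vehicle 2 or 3 (adjusted p 0.085 to 0.122 in the 4 fits), and Itgae without LC-DTA vehicle 1 or 3 (0.0566 to 0.0826 in its 3 fits). Itga11 was lost in 11 such fits (adjusted p 0.051 to 0.212), including each fit without a croton oil sample. The 23 called without LC-DTR vehicle 1 included Itga10, Itgb7, Itgav, Lama5 and Lamc3, all higher in LC-DTA (adjusted p 0.0209 to 0.0488), and Lama3 was called lower without LC-DTR vehicle 3 or LC-DTR croton oil 4 (0.0137 to 0.0488).

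Stromal ligands and markers were higher in LC-DTA vehicle ears as well. Of 11 basement membrane partners 7 were higher and 0 lower, among them the type IV collagen chains Col4a1 (1.18 ± 0.16, adjusted p = 6.13e-04) and Col4a2 (1.12 ± 0.16, adjusted p = 7.60e-04) and the laminin linkers Nid2 (1.42 ± 0.22, adjusted p = 0.00109) and Nid1 (0.98 ± 0.15, adjusted p = 0.00117). Of 12 matrix ligands 10 were higher and 0 lower, with the microfibril gene Fbn1 at 1.20 ± 0.19 (adjusted p = 0.00109) and the fibronectin gene Fn1 at 1.25 ± 0.21 (adjusted p = 0.00133). All 6 fibroblast markers were higher, with a median of 1.29, and their sums were 2130 to 4872 TPM in LC-DTR and 7003 to 8813 TPM in LC-DTA vehicle samples. All 6 mast cell markers and 7 of 10 monocyte and macrophage markers were higher too. Beside these list counts, 19.1% of all genes tested were higher and 5.34% lower in this comparison. The counts hold for the deposited scaling, on which the direction of calls over all genes depended. LC-DTR vehicle sample 2 had the lowest sum of fibroblast markers. Whether the member differences follow the share of stromal cells was not tested.

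After croton oil, 22 members differed between the genotypes, 17 higher in LC-DTA and 5 lower, against 52.3% of all genes (34.3% higher and 18.0% lower). Of all called genes, 65.6% were higher as deposited, 49.8% after median ratio scaling and 50.1% after quantile normalization, and the members gave 14 higher and 7 lower, and 15 higher and 8 lower, under these scalings. The groups did not overlap for 21 members, 16 higher and 5 lower, where this held for 45.2% of all genes (29.6% higher, 15.7% lower). Among them were 5 leukocyte chains, Itgb2 (1.25 ± 0.17, adjusted p = 5.54e-05), Itga4 (1.19 ± 0.12, adjusted p = 6.12e-06), Itgal (1.06 ± 0.12, adjusted p = 1.40e-05), Itgam (1.04 ± 0.18, adjusted p = 3.50e-04) and Itgb7 (1.04 ± 0.12, adjusted p = 2.12e-05). The 8 leukocyte chains summed to 46.6, 30.6, 32.0 and 38.6 TPM in LC-DTR and to 73.6, 92.0, 82.8 and 70.7 TPM in LC-DTA croton oil ears. Lama4 was the laminin chain with the largest positive difference, at 13.7 ± 1.60 against 25.7 ± 2.43 TPM (0.86 ± 0.11, adjusted p = 4.60e-05), followed by Lamb1 (0.58 ± 0.12, adjusted p = 0.00152) and Lamc1 (0.53 ± 0.10, adjusted p = 5.53e-04). Itgb8 was also higher (0.65 ± 0.12, adjusted p = 7.34e-04).

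The 5 lower members were Lamc3 (-0.89 ± 0.20, adjusted p = 0.00203), Itga10 (-0.81 ± 0.19, adjusted p = 0.00253), Itgb5 (-0.64 ± 0.095, adjusted p = 1.02e-04), Lamb3 (-0.58 ± 0.10, adjusted p = 2.33e-04) and Lama5 (-0.57 ± 0.11, adjusted p = 7.91e-04). None of these 5 was called under vehicle with all samples in the fit. For Itgb6 the difference of -0.50 ± 0.21 was not called (adjusted p = 0.0627), but it was without LC-DTR croton oil 2 or 3 (adjusted p 0.0144 to 0.025), and was -0.97 without both (adjusted p = 3.87e-04). Without both, Itgb1, higher by 0.22 ± 0.059 (adjusted p = 0.00681), was no longer called (0.13, adjusted p = 0.105), and Itga3 was called lower (-0.37, adjusted p = 0.008). That pair of samples was picked from a split seen in these same data. The calls of Itgb6 and Itga3 without both are therefore no support for a genotype difference. The call of Itgav (0.22 ± 0.082, adjusted p = 0.0349) was lost in 7 of the fits without 1 sample, those without any 1 LC-DTR croton oil sample or LC-DTA croton oil 2, 3 or 4 (0.05 to 0.109), and that of Itgb3 (0.34 ± 0.11, adjusted p = 0.0192) without LC-DTR croton oil 4 or LC-DTA croton oil 2 (0.0568 to 0.0667). After median ratio scaling the calls of Itgb1, Itgav and Itgb3 were lost as well (adjusted p = 0.111, 0.125 and 0.0507). Single omissions also brought calls of Itga6 (without LC-DTA croton oil 1, adjusted p = 0.0497) and Itgax (without LC-DTR croton oil 1, 0.00522). For Itgax the sample left out was the highest of its group, at 2.34 TPM. The chain then passed the filter through all LC-DTA croton oil samples and only sample 4 of LC-DTR. Its call is therefore no support for a genotype difference.

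**Figure D5:**
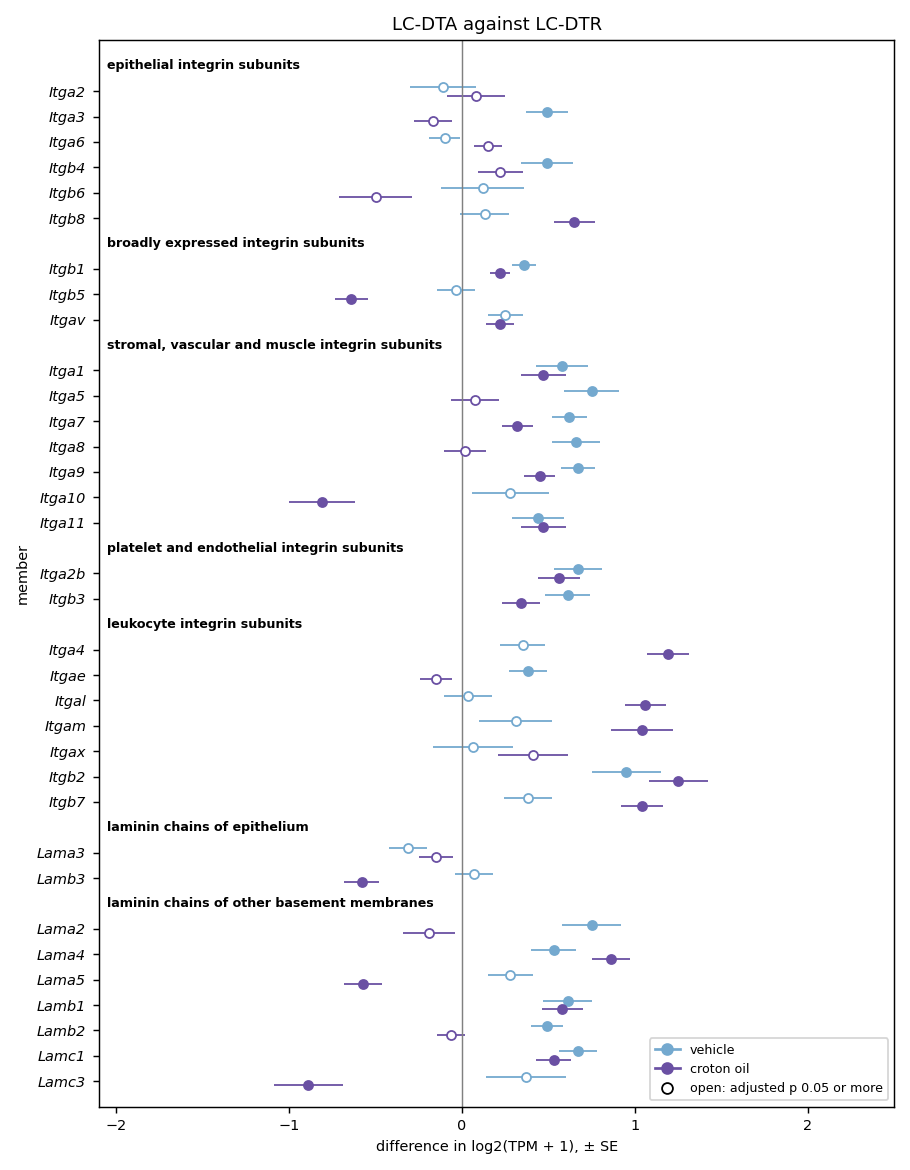
Difference between LC-DTA and LC-DTR in log2(TPM + 1) (x axis, ± SE) for the 34 tested members (y axis, grouped by class), with 1 colour for each treatment; filled points were called at an adjusted p under 0.05. Under vehicle all filled points lie right of 0; after croton oil 5 leukocyte chains lie beyond 1 and Lamc3, Itga10, Itgb5, Lamb3 and Lama5 lie left of 0.

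Over the whole set, 14 members responded differently to croton oil in the 2 genotypes, against 23.1% of all genes (10.5% with the higher and 12.6% with the lower value in LC-DTA). The response was higher in LC-DTA for 3, the leukocyte chains Itgal, Itga4 and Itgb7, and lower for 11, of which 5 were laminin chains, Lamc3, Lama2, Lama5, Lamb3 and Lamb2, and 6 were integrin chains, Itga10, Itga5, Itga3, Itga8, Itgb5 and Itgae. Ligands of the same lists did not all share that direction. The difference of responses was 1.10 ± 0.35 (adjusted p = 0.0376) for Tnc and -0.66 ± 0.15 (adjusted p = 0.00741) for Vtn, which encodes vitronectin, the ligand of the Itgav and Itgb5 pair.

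Promoter sequence was read for members that moved together, to show what lies upstream of the chains higher in both genotypes. The RefSeq promoter table on GRCm38.p6 held 23 of the 36 member genes, with 26 start sites, and 6 of the 8 genes higher in both genotypes. The 100 bases upstream of the start are shown for the chains with the largest differences of the epithelial class in LC-DTR, Itgb6 and Itga3, and for the neighbouring leukocyte chains Itgam and Itgax, which lie on chromosome 7 from 128062640 to 128118491 and from 128129547 to 128150657. Itgb6 and Itga3 have 2 listed start sites each. The first one printed lies well inside the gene, which spans 60598292 to 60722643 for Itgb6 and 95044474 to 95076801 for Itga3. The PU.1 match of Itgb6 and the AP-1 match of Itga3 belong to these inner start sites. Lower case is plain sequence, 5′ to 3′ on the strand of the gene, and capitals mark a match to AP-1 (TGANTCA), the motif of factors that phorbol esters activate, or PU.1 (GAGGAAGT), a motif of a myeloid factor, searched on both strands.
Itgb6, chr2:60673694-60673793, minus strand: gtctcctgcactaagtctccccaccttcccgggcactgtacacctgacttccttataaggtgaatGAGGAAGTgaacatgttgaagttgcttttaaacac
Itgb6, chr2:60722604-60722703, minus strand: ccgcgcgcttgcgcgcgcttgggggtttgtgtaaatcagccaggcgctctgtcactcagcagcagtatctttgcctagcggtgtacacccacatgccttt
Itga3, chr11:95069199-95069298, minus strand: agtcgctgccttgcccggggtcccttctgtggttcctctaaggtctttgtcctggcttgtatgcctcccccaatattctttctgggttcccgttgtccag
Itga3, chr11:95076715-95076814, minus strand: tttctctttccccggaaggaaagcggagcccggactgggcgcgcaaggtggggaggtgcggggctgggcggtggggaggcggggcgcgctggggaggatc
Itgam, chr7:128062540-128062639, plus strand: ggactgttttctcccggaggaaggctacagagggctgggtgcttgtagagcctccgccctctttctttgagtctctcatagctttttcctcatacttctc
Itgax, chr7:128129450-128129549, plus strand: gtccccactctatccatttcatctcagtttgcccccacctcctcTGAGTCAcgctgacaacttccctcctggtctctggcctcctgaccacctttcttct
The AP-1 motif stood in 3 of 26 member promoters (11.5%), those of Itga3, Itga9 and Itgax, over windows of 250 bases before to 50 after the start, and in 7.81% of all 32851 promoters of that length in the table. The PU.1 motif stood in 4 of 26 (15.4%), those of Itga11, Itgav, Itgb6 and Itgb7, against 3.20% of all, and an NF-kB motif, GGG and CC with 5 bases between them, in 16 of 26 (61.5%) against 50.8%. A match is a description of letters and not a binding site.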

How the data were processed

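Whole ear mRNA was measured in 14 samples, 3 in each vehicle group and 4 in each croton oil group. Per the labels' protocols, RNA came from a Qiagen RNeasy kit and libraries from the Illumina TruSeq Stranded mRNA kit. Per the submitters' processing notes, the tools were cutadapt, HISAT2, Subread and featureCounts and the build mm10, with no versions or order given. The values are TPM as deposited by the authors, summing to 1e+06 in each sample over 24062 rows. The sources used here do not give how TPM were computed, the annotation or the strand setting, so overlapping and antisense genes cannot be told apart. TPM keep no depth, and no counting intervals are given. Between 7.20 and 10.1% of a sample's TPM fell on its 10 highest genes, and 13733 to 14332 genes were at 1 TPM or more. Samples of a group correlated across genes at 0.986 to 0.996 (log2 values), and 0 columns were identical.

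Samples were grouped by the labels. The 27 rows named as dates were left out, leaving 24035 genes, of which 14693 reached 1 TPM in 3 samples or more. On log2(TPM + 1) of the deposited values, limma 3.58.1 (R 4.3.3) estimated 4 group means from the 14 samples, using its mean-variance trend. Treatments were compared within each genotype, genotypes within each treatment, and the 2 responses with each other, making 5 comparisons. The p-values are two-sided, with Benjamini-Hochberg adjustment over the 14693 genes of a comparison. The fit was tested on simulated data. Tables were handled with Python 3.11.15, pandas 2.3.3 and numpy 2.4.6, and figures drawn with matplotlib 3.10.9.

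The symbol rule found 37 genes, of which 1 is not reported here. Any other member may be named, and members were placed in 7 classes by their main known sources. Of each of 6 pathway lists and 16 marker lists, the 4 genes with the lowest p in a comparison could be named, and values of a gene named for 1 comparison are given for others too. Cd207, the markers named to show a limit of a count or sum, and the genes set beside a member in another comparison, were chosen after their values were seen. The members and lists were chosen with earlier results of these data known. Adgre1 and Tns2 were found as Emr1 and Tenc1, and Flg, Ly6g, Trac and Trdc were not analysed here. Positions come from GENCODE M21 (GRCm38, also called mm10) and promoters from RefSeq.

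Alternatives were pseudocounts of 0.1 and 5, no filter, a filter of 5 TPM, median ratio scaling, quantile normalization, a robust fit, a fit with no trend, a block on the replicate number, fits of the compared groups alone, leaving out LC-DTR croton oil samples 2 and 3 or LC-DTA croton oil samples 3 and 4 together, and leaving out each sample in turn.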

Additional observations from a re-analysis of the deposited data

Results flagged for a closer look

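The highest sample stood apart from the other 3 of its group in 2 of 68 checks on the 34 tested members in the 2 croton oil groups, by a gap over Dixon's 95% critical value. Itgb7 was at 14.99 TPM in LC-DTA croton oil sample 2, and Lama3 was at 17.16 TPM in LC-DTA croton oil sample 1. Chance flags about 1 in 20 groups.

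For 14 members the croton oil response differed between the genotypes by the limma test of that difference (LC-DTA response minus LC-DTR response, log2). The differences were 1.03 for Itgal, 0.84 for Itga4 and 0.66 for Itgb7, and -1.26 for Lamc3, -1.09 for Itga10, -0.94 for Lama2, -0.86 for Lama5, -0.68 for Itga5, -0.66 for Itga3, -0.65 for Lamb3, -0.64 for Itga8, -0.61 for Itgb5, -0.55 for Lamb2 and -0.53 for Itgae.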

How the results depend on the processing

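The counts of called members stayed within 1.5 times the reported counts in all 26 alternatives. Of 96 called member results 65 were called in all 26 alternatives and another 7 in the 25 that tested them, since Itga4, Itga11 and Itgax did not pass the filter of 5 TPM. The other 24 were lost in at least 1 and 0 reversed, and of 74 not called 28 were called in at least 1. Leaving out each sample in turn gave 14 to 18 called members for croton oil in LC-DTR, 21 to 25 in LC-DTA, 13 to 23 for the genotypes under vehicle, 20 to 23 after croton oil and 12 to 14 for the difference of responses. Same-numbered samples of different groups had correlations of -0.315 to 0.126 in their deviations from the group means, so the numbers did not pair the samples, and with the replicate number as a block the 5 counts were 14, 22, 16, 21 and 13. Over all genes the count higher in LC-DTA under vehicle was 2810, and 1415 without LC-DTR vehicle replicate 2 or 1685 without LC-DTA vehicle replicate 3. The counts of lower genes there were 785, and 366 and 408. For the difference of responses the 1541 higher and 1848 lower genes became 1060 and 1154 without LC-DTA vehicle replicate 2. Scaling by the median ratio changed the share of higher calls in the LC-DTA response from 41.2% to 51.6%, with 11 higher and 12 lower members. The precision at low TPM, as for Itgax, Itga4 or Itgal, is limited by unknown depth.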
